A study of Homo sapiens with 16 samples.

Results

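The mRNAs of the aminoacyl-tRNA synthetases were followed through a SLAM-seq chase in the human monocytic leukaemia line THP-1, with and without knockdown of ALKBH5, an RNA demethylase that acts on m6A. The members were chosen by gene symbol, taking every symbol made of an amino acid letter and ARS (with FARSA, FARSB, EPRS1 and TARS3) at an abundance of at least 1 CPM, which gave 36 of the 60564 genes in the table. Of these, 15 carry a name ending in 2 and encode the mitochondrial enzymes, and 21 encode the cytosolic enzymes, among them GARS1 and KARS1, which serve both compartments from a single gene. A further 2 symbols matched but lay under the minimum, PARS2 at 0.106 CPM and MARS2 at 0.291 CPM, and VARS2 at 1.03 CPM lay just inside it. The choice used the name and the abundance and no conversion rate. Gene coordinates below are those of GENCODE 29 on GRCh38, and all 36 genes matched it.

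The cells carried either a knockdown that the labels call A5-KD, read as ALKBH5 from the title of the series, or the wild-type genotype, called control here. All cells received 100 µM 4-thiouridine (4sU) for 1 h, were washed, and were kept in 10 mM uridine until collection at 0, 1.5, 4.5 or 7.5 h, per the labels' protocols, with 2 libraries of polyadenylated RNA for each genotype and time, 16 in all. The reagent that lowered ALKBH5, the number of clones and whether replicates were separate cultures are not stated in the labels, so p-values may measure technical spread only. The table heads its columns C or S. The first is the initial of the control, S was read as knockdown because no other genotype remains, and every statement on a genotype rests on that reading. The conversion rate, which the table does not define, was taken as the share of a gene's sequenced T bases read as C, which marks RNA made during the 4sU pulse. Both the loss of labelled RNA and the making of unlabelled RNA lower it, it carries no abundance, and no library without 4sU was used to set its background.

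Aminoacyl-tRNA synthetases join each amino acid to its tRNA, the step that fixes the reading of the genetic code. Human cells keep one set of enzymes for the cytosol and another, encoded in the nucleus and imported, for the mitochondrion. Several cytosolic enzymes are bound into the multisynthetase complex, held together by the scaffold proteins AIMP1, AIMP2 and EEF1E1. When amino acids run short, uncharged tRNA activates the kinase GCN2, translation of the transcription factor ATF4 rises, and ATF4 induces many cytosolic synthetase genes through C/EBP-ATF elements near their start sites.

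Promoter sequences, taken from RefSeq (GRCh38.p14) as 250 bases before to 50 bases after each gene's start, were at hand for 28 of the 36 members. Those with no entry included AARS2, LARS1, TARS3, VARS1, VARS2 and YARS1. The C/EBP-ATF element was searched as TGATGNAA on both strands, and the promoters that hold it are shown because 6 of 7 belong to cytosolic genes. It was found in 1 of 12 mitochondrial genes and in 6 of 16 cytosolic genes, against 1003 of all 27305 promoters (3.673%). The 60-base windows round the matches, on the strand of the gene, carry the match in capitals.

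AARS1, chr16:70289660-70289719, minus strand: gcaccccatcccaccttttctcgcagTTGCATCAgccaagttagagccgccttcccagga
CARS1, chr11:3057392-3057451, minus strand: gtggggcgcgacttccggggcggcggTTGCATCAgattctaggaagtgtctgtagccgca
IARS1, chr9:92293677-92293736, minus strand: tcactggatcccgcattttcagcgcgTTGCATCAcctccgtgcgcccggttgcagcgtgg
MARS1, chr12:57488038-57488097, plus strand: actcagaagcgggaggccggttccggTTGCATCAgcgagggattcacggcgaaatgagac
NARS1, chr18:57621789-57621848, minus strand: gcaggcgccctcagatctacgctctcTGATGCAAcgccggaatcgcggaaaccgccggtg
TARS1, chr5:33440941-33441000, plus strand: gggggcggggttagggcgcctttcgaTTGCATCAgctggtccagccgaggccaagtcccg
YARS2, chr12:32756061-32756120, minus strand: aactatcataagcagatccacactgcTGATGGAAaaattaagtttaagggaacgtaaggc

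The 6 cytosolic matches had the same letters on one strand or the other, TGATGCAA or TTGCATCA, a spelling that 252 of all 27305 promoters hold (0.923%) and that was singled out after the matches were seen. In CARS1, IARS1, MARS1, NARS1 and TARS1 the match began within 15 bases of the start position, and in AARS1 it began 187 bases before it. The YARS2 match differed in its free base and began 197 bases before the start. An interferon-stimulated response element was found in EARS2 only among the 28 members, against 3.648% of all promoters, and a GAS element, TTCNNNGAA, in WARS2, CARS1 and TARS1, against 7.881%. No match of these motifs overlapped another. A match describes letters and not binding, and in a conversion rate promoter activity is not measured.

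The median rate over the 16241 genes tested was 1.19% and 1.18% in the 0 h knockdown libraries, against 0.539% and 0.556% in their controls. By 7.5 h it was 0.533% and 0.532% in knockdown, against 0.250% and 0.254% in control. Spearman correlations between the replicates of a group, across genes that are not independent, lay between 0.739, for knockdown at 0 h, and 0.359, for control at 7.5 h. Read depth per rate is unknown. ALKBH5 had rates of 3.31% and 2.46% in the 0 h knockdown libraries, against 0.812% and 0.386% in the 0 h controls, which do not test its level. All 8 monocytic markers were detected, from ITGAM at 1.93 CPM to LYZ at 1276 CPM, while CD3E, CD79A, MS4A1, HBB and HBA1 lay between 0 and 0.132 CPM, and the 4 epithelial markers did not exceed 2.88 CPM. The CPM is a single deposited column whose library is not stated.

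The chase asked how fast the rate of each mRNA fell. The rates of the mitochondrial synthetase mRNAs fell faster than those of the cytosolic enzymes by their medians in both genotypes. The mean rate left at 7.5 h, as a share of that at 0 h, had a median over genes of 33.2% for mitochondrial, 63.2% for cytosolic and 50.6% for all tested genes in knockdown. In control the medians were 44.9%, 64.7% and 53.8% in the same order. The 8 enzymes of the multisynthetase complex kept a median of 68.7% in knockdown and 61.8% in control. Mitochondrial members thus lay below all tested genes and cytosolic members above them, a description with no test, since genes of a class are not replicates.

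The slope of the log2 rate over the chase, in log2 per hour, gave the same order of classes. Its median was −0.19 for mitochondrial, −0.088 for cytosolic and −0.13 for all tested genes in knockdown, and −0.13, −0.069 and −0.11 in control. By limma at an adjusted p under 0.05, 9 of 15 mitochondrial and 10 of 21 cytosolic genes fell in knockdown, where 37.9% of all tested genes did. In control 8 mitochondrial and 9 cytosolic genes fell, against 34.4% of all tested genes, and none of the 36 rose in either genotype, against 4.06% in knockdown and 3.45% in control. At an unadjusted p under 0.05 the only positive slope among them was that of VARS2 in knockdown. In 14 genes the fall passed in both genotypes, 7 in each class. They included EARS2, FARS2, LARS2, NARS2, RARS2, TARS2 and YARS2 on the mitochondrial side and CARS1, IARS1, RARS1, TARS3, VARS1 and YARS1 on the cytosolic side. The share of all tested genes that fell in both genotypes was not counted, so the 14 have no background beside them.

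**Figure D1:**
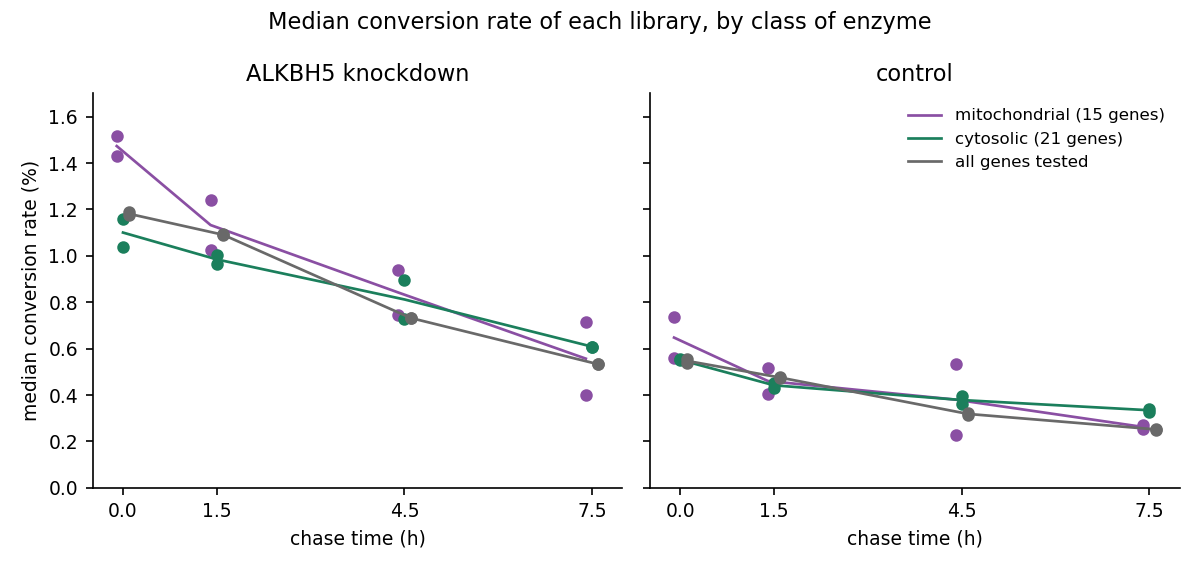
Median conversion rate in percent over the genes of a class (vertical axis) in each library against chase time in hours (horizontal axis), knockdown left and control right; points are libraries and lines join the means of 2 libraries. At 0 h the mitochondrial median lies above the cytosolic one in all 4 libraries, and at 7.5 h the mitochondrial libraries sit at 0.400% and 0.714% in knockdown and 0.254% and 0.270% in control, against cytosolic values of 0.608% and 0.609% in knockdown and 0.328% and 0.340% in control.

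The levels crossed during the chase in control. In knockdown the mitochondrial median lay below the cytosolic one only in 4.5 h replicate 2 (0.743% against 0.897%) and in 7.5 h replicate 1. At 0 h the median rate of the mitochondrial genes was 1.43% and 1.52% in the knockdown libraries, against 1.04% and 1.16% for the cytosolic genes. In the control libraries at 0 h it was 0.558% and 0.738%, against 0.553% and 0.550%. Libraries at 7.5 h with no overlap below those at 0 h were seen for 11 mitochondrial and 19 cytosolic genes in knockdown, against 57.5% of all tested genes, and for 10 and 15 in control, against 49.8%. By this count the cytosolic share was the larger one, at 90.5% against 73.3% in knockdown and 71.4% against 66.7% in control. At 7.5 h the mitochondrial median was the lower one in both control libraries, but in knockdown it lay below the cytosolic value in the first library and above it in the second.

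Of the mitochondrial genes above 0 in every library, NARS2, FARS2 and LARS2 had the lowest control slopes, and all 3 fell in both genotypes. In knockdown YARS2 was steeper than FARS2 and LARS2, and RARS2 steeper than LARS2. FARS2, the mitochondrial phenylalanyl-tRNA synthetase (ENSG00000145982, chromosome 6, 5261044 to 5829192, plus strand), had rates of 1.47% and 1.52% at 0 h, 1.45% and 1.22% after 1.5 h, 0.941% and 0.554% after 4.5 h and 0.457% and 0.424% after 7.5 h in knockdown. In the control libraries they were 0.873% and 0.896% at 0 h, 0.643% and 0.645% after 1.5 h, 0.330% and 0.256% after 4.5 h and 0.291% and 0.223% after 7.5 h. Every 7.5 h library lay below every 0 h library of its genotype. The slope was −0.23 (SE 0.0360, adjusted p = 1.0e-04) in knockdown and −0.23 (SE 0.0360, adjusted p = 1.5e-04) in control, for a halving time of the rate plus pseudocount of 4.34 h and 4.43 h.

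NARS2, which charges asparagine in mitochondria (ENSG00000137513, chromosome 11, 78435961 to 78574874, minus strand), had rates of 1.96% and 1.89% at 0 h, 1.42% and 1.04% after 1.5 h, 0.430% and 0.748% after 4.5 h and 0.577% and 0.336% after 7.5 h in knockdown. Control values ran 0.674% and 1.01% at 0 h, 0.517% and 0.881% after 1.5 h, 0.213% and 0.304% after 4.5 h and 0.0961% and 0.261% after 7.5 h. The 7.5 h and 4.5 h libraries lay below those at 0 h and 1.5 h in both genotypes. Its slopes were −0.27 (SE 0.0543, adjusted p = 8.7e-04) in knockdown and −0.29 (SE 0.0543, adjusted p = 6.0e-04) in control, a halving in 3.71 h and 3.45 h. Set against the library medians the control slope was still −0.15 (adjusted p = 0.0419), but leaving out any of 9 libraries, over −0.22 to −0.11, ended the call.

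LARS2, the mitochondrial leucyl-tRNA synthetase (ENSG00000011376, chromosome 3, 45388506 to 45549421, plus strand), had rates of 1.54% and 2.51% at 0 h, 1.37% and 1.17% after 1.5 h, 0.669% and 0.409% after 4.5 h and 0.639% and 0.714% after 7.5 h in knockdown. For control the rates were 0.545% and 1.20% at 0 h, 0.468% and 0.449% after 1.5 h, 0.224% and 0.249% after 4.5 h and 0.148% and 0.346% after 7.5 h. The replicates at 0 h differed widely in both genotypes, but neither overlapped those at 7.5 h. The slopes were −0.21 (SE 0.0598, adjusted p = 0.00985) in knockdown and −0.21 (SE 0.0598, adjusted p = 0.0103) in control. The knockdown call ended without knockdown 0 h replicate 2 (−0.17, adjusted p = 0.0558), and the control call without control 0 h replicate 2 or control 7.5 h replicate 1 (−0.29 to −0.15). Ranges given beside calls that end run over leaving out each of the 16 libraries in turn.

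TARS2, EARS2, YARS2 and RARS2, which charge threonine, glutamate, tyrosine and arginine in mitochondria, also fell in both genotypes. RARS2 fell at −0.22 (SE 0.0329, adjusted p = 7.3e-05) in knockdown and −0.10 (SE 0.0329, adjusted p = 0.0248) in control, and YARS2 at −0.24 (SE 0.0518, adjusted p = 0.00130) and −0.15 (SE 0.0518, adjusted p = 0.0307). EARS2, listed at 0 in 1 control library, fell at −0.23 (SE 0.0862, adjusted p = 0.0427) in knockdown and −0.30 (SE 0.0862, adjusted p = 0.0107) in control. Several of these calls rest on single libraries. In control, that of RARS2 ended without control 0 h replicate 2 or control 7.5 h replicate 1 (−0.11 to −0.094). That of YARS2 ended without control 0 h replicate 1, 1.5 h replicate 2 or 7.5 h replicate 2 (−0.21 to −0.12), and that of EARS2 without replicate 2 of control at 0 h or 7.5 h (−0.40 to −0.19). In knockdown the EARS2 call ended without any of 8 libraries (−0.28 to −0.16).

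CARS2 and WARS2 fell in knockdown only by the threshold, at −0.19 (SE 0.0467, adjusted p = 0.00357) and −0.15 (SE 0.0582, adjusted p = 0.0477), against control slopes of −0.053 and −0.0070. Leaving out any of 10 libraries ended the WARS2 call, over −0.17 to −0.12. SARS2, listed at 0 in 2 control libraries, passed in control only, at −0.40 (SE 0.135, adjusted p = 0.0270), against −0.20 in knockdown, and its call ended without control 0 h replicate 1 or control 7.5 h replicate 1 (−0.53 to −0.31). Its exons overlap AC011455.2 on the same strand and MRPS12 on the opposite one, and the labels do not state whether the counting used strand. None of these genotype differences in slope passed a test of the difference.

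**Figure D2:**
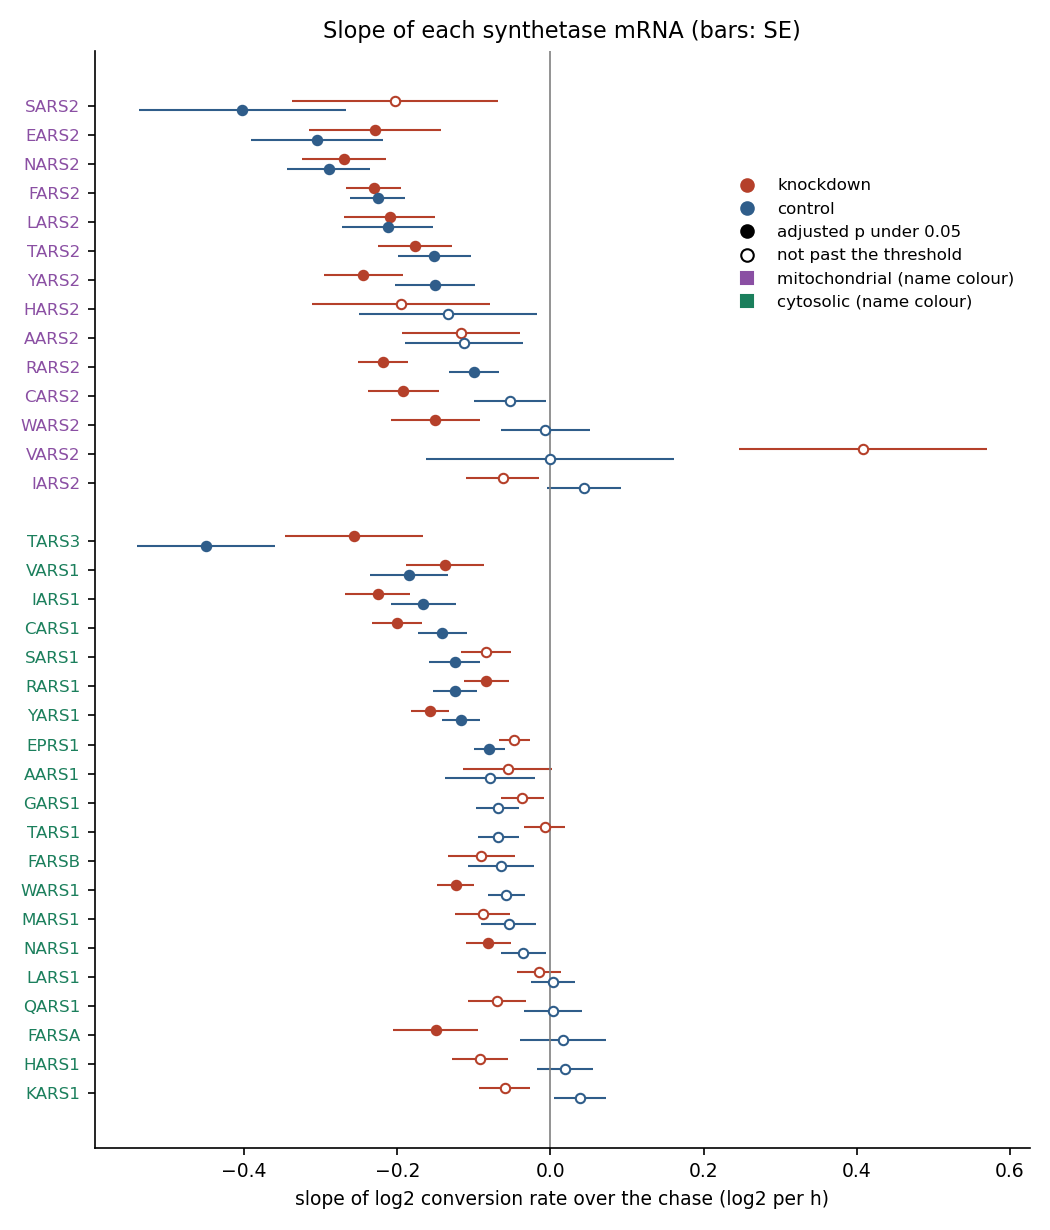
Slope of the log2 conversion rate over the chase, in log2 per hour (horizontal axis), for each gene named, in knockdown (red, upper) and control (blue, lower); bars are SE from the fit over 16 libraries and filled points have an adjusted p under 0.05. Mitochondrial genes stand above and cytosolic genes below, each ordered by control slope; every knockdown slope drawn is negative but that of VARS2.

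IARS2 had the highest control slope of the mitochondrial genes. This mitochondrial isoleucyl-tRNA synthetase mRNA (ENSG00000067704, chromosome 1, 220094102 to 220148041, plus strand) had rates of 0.805% and 0.781% at 0 h, 1.04% and 1.29% after 1.5 h, 0.953% and 0.813% after 4.5 h and 0.400% and 0.985% after 7.5 h in knockdown. The pairs in control were 0.425% and 0.478% at 0 h, 0.570% and 0.376% after 1.5 h, 0.618% and 0.493% after 4.5 h and 0.574% and 0.558% after 7.5 h. In control 5 of the 6 libraries after 0 h lay above both 0 h libraries, while in knockdown the 7.5 h replicates lay on either side of the 0 h pair. Its slope did not pass in knockdown, −0.063 (SE 0.0480, adjusted p = 0.318), or in control, 0.044 (SE 0.0480, adjusted p = 0.515), and it rose relative to the library medians in control by 0.18 (SE 0.0474, adjusted p = 0.0101). In that genotype the rate at 7.5 h was 125% of that at 0 h.

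Mitochondrial slopes that passed in neither genotype included those of HARS2 (−0.19 in knockdown, −0.13 in control), AARS2 (−0.12, −0.11) and VARS2. The exons of HARS2 overlap ZMAT2 on the same strand and HARS1 on the opposite one. VARS2, the valyl enzyme, was listed at 0 in 13 of 16 libraries and had rates of 0.782%, 0.632% and 1.20% in 3 knockdown libraries, so that its slopes and folds rest on those 3 libraries and the pseudocount. Its exons also overlap GTF2H4 on the same strand.

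Among the cytosolic genes, TARS3 had the steepest fall. TARS3 is a paralogue of the cytosolic threonyl-tRNA synthetase TARS1 and had an abundance of 2.91 CPM, against 116 CPM for TARS1. Its rates (ENSG00000185418, chromosome 15, 101653598 to 101724604, minus strand) were 1.94% and 1.89% at 0 h, 1.00% and 0.822% after 1.5 h, 0.674% and 0.494% after 4.5 h and 0.411% and 0.416% after 7.5 h in knockdown. Control libraries had rates of 1.77% and 1.55% at 0 h, 0.246% and 0.425% after 1.5 h, 0.286% and 0.334% after 4.5 h and 0% and 0.178% after 7.5 h. In both genotypes the 0 h pair stood at 1.55% or above, and the later libraries lay between 0 and 1.00%. The slopes were −0.26 (SE 0.0896, adjusted p = 0.0301) in knockdown and −0.45 (SE 0.0896, adjusted p = 9.5e-04) in control, and the share of the 0 h rate left at 7.5 h was 21.6% and 5.36%. The knockdown call ended without either knockdown library at 0 h or at 7.5 h (−0.27 to −0.23).

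VARS1, the cytosolic valyl-tRNA synthetase (ENSG00000204394, chromosome 6, 31777518 to 31795953, minus strand), had the next lowest control slope. Its rates were 0.939% and 1.76% at 0 h, 0.841% and 0.847% after 1.5 h, 0.409% and 0.924% after 4.5 h and 0.541% and 0.609% after 7.5 h in knockdown. The control rates were 0.683% and 0.659% at 0 h, 0.409% and 0.324% after 1.5 h, 0.517% and 0.230% after 4.5 h and 0.177% and 0.194% after 7.5 h. The 7.5 h libraries lay below the 0 h libraries in both genotypes. The slope was −0.14 (SE 0.0505, adjusted p = 0.0376) in knockdown and −0.18 (SE 0.0505, adjusted p = 0.00870) in control. The knockdown call ended without 3 libraries, knockdown 0 h replicate 2 and either knockdown library at 7.5 h, over −0.16 to −0.091.

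IARS1, CARS1, YARS1 and RARS1, which charge isoleucine, cysteine, tyrosine and arginine, fell in both genotypes. IARS1 and CARS1 were the steepest of them in knockdown, at −0.23 (SE 0.0423, adjusted p = 4.9e-04) and −0.20 (SE 0.0324, adjusted p = 1.4e-04), with −0.17 (adjusted p = 0.00554) and −0.14 (adjusted p = 0.00272) in control. The IARS1 control call ended without control 7.5 h replicate 2 (−0.12, adjusted p = 0.0603). RARS1 fell at −0.084 in knockdown, a call that ended without knockdown 0 h replicate 2 or either knockdown library at 7.5 h (−0.092 to −0.068), and at −0.12 in control. WARS1, NARS1 and FARSA passed in knockdown alone, at −0.12 (SE 0.0242, adjusted p = 7.0e-04), −0.081 (SE 0.0294, adjusted p = 0.0351) and −0.15 (SE 0.0558, adjusted p = 0.0402), and EPRS1 and SARS1 in control alone, at −0.080 (SE 0.0202, adjusted p = 0.00543) and −0.13 (SE 0.0332, adjusted p = 0.00721). The NARS1 call ended without any knockdown library of 1.5 h or 7.5 h (−0.11 to −0.046), and the FARSA call without either knockdown library at 1.5 h or replicate 1 at 4.5 h or 7.5 h (−0.20 to −0.086). SARS1 lost it without control 7.5 h replicate 2 (−0.094, adjusted p = 0.0665).

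The remaining 9 cytosolic genes, AARS1, FARSB, GARS1, HARS1, KARS1, LARS1, MARS1, QARS1 and TARS1, passed in neither genotype. Control rates were higher on average at 7.5 h than at 0 h for IARS2 and WARS2 of the mitochondrial genes and for FARSA, HARS1, KARS1 and LARS1 of the cytosolic ones, and knockdown rates for LARS1 and for VARS2, which was listed at 0 at the start. KARS1, lysyl-tRNA synthetase of both compartments and of the multisynthetase complex (ENSG00000065427, chromosome 16, 75627474 to 75648643, minus strand), had rates of 0.846% and 0.905% at 0 h, 0.834% and 0.846% after 1.5 h, 0.609% and 0.683% after 4.5 h and 0.716% and 0.596% after 7.5 h in knockdown. In the control libraries they were 0.328% and 0.146% at 0 h, 0.350% and 0.339% after 1.5 h, 0.222% and 0.296% after 4.5 h and 0.278% and 0.404% after 7.5 h. In knockdown the 7.5 h pair lay below the 0 h pair, whereas in control the 7.5 h pair fell inside the range of the 0 h pair or above it. The slope was −0.060 (SE 0.0339, adjusted p = 0.170) in knockdown and 0.038 (SE 0.0339, adjusted p = 0.414) in control. KARS1 exons overlap TERF2IP on the opposite strand.

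HARS1, the cytosolic histidyl-tRNA synthetase (ENSG00000170445, chromosome 5, 140673904 to 140691862, minus strand), had rates of 1.06% and 0.993% at 0 h, 0.789% and 1.07% after 1.5 h, 1.21% and 1.01% after 4.5 h and 0.533% and 0.571% after 7.5 h in knockdown. Control values ran 0.279% and 0.360% at 0 h, 0.250% and 0.400% after 1.5 h, 0.394% and 0.237% after 4.5 h and 0.323% and 0.403% after 7.5 h. Knockdown rates lay between 0.789% and 1.21% until 4.5 h and were lower at 7.5 h, while the control pairs of all 4 times overlapped. The slope was −0.092 (SE 0.0368, adjusted p = 0.0557) in knockdown and 0.019 (SE 0.0368, adjusted p = 0.736) in control. HARS1 exons overlap HARS2 and WDR55 on the opposite strand.

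FARSA, the catalytic subunit of the cytosolic phenylalanyl enzyme (ENSG00000179115, chromosome 19, 12922479 to 12934037, minus strand), had rates of 0.641% and 0.797% at 0 h, 1.39% and 1.53% after 1.5 h, 0.491% and 0.897% after 4.5 h and 0.280% and 0.590% after 7.5 h in knockdown. For control the rates were 0.393% and 0.254% at 0 h, 0.511% and 0.255% after 1.5 h, 0.402% and 0.363% after 4.5 h and 0.328% and 0.386% after 7.5 h. In knockdown both 1.5 h libraries stood above those of every other time. FARSB, its partner subunit, had slopes of −0.090 in knockdown and −0.064 in control, neither past the threshold, so the 2 subunits differed in the call for knockdown, a difference between genes that was not tested.

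The library medians fell by 0.150 log2 per hour in knockdown and by 0.136 in control. Relative to them more synthetase mRNAs rose than fell, as was also so among all tested genes. These centred slopes rose for 7 cytosolic genes and 1 mitochondrial gene in control, where 17.6% of all tested genes did, and for 4 cytosolic genes and 1 mitochondrial gene in knockdown, against 17.7%. Those in control were IARS2 and WARS1, NARS1, LARS1, KARS1, QARS1, HARS1 and FARSA, and in knockdown VARS2 and LARS1, TARS1, EPRS1 and GARS1. LARS1, leucyl-tRNA synthetase of the multisynthetase complex, was shared, at 0.13 (SE 0.0264, adjusted p = 0.00119) in knockdown and 0.14 (SE 0.0264, adjusted p = 0.00101) in control. Those that fell relative to the medians were NARS2 and TARS3 in control, against 9.46% of all tested genes, and none in knockdown, against 8.62%. In knockdown RARS2 passed only at a pseudocount of 0.2. The FARSA call was lost on leaving out any of 10 libraries (0.12 to 0.17), that of WARS1 without control 0 h replicate 1 or either control library at 7.5 h (0.064 to 0.091), that of NARS1 without control 0 h replicate 1 (0.083), that of QARS1 without control 7.5 h replicate 1 (0.12), that of TARS3 without either control library at 0 h or replicate 1 at 7.5 h (−0.42 to −0.20) and that of VARS2 without either knockdown library at 7.5 h (0.42 to 0.67).

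Abundance moved with class. The median abundance was 11.9 CPM for mitochondrial and 56.4 CPM for cytosolic genes, against 9.66 CPM for all tested genes. The 5 cytosolic genes with an abundance inside the range of the mitochondrial genes were RARS1, VARS1, AARS1, FARSB and TARS3. Their median slope was −0.090 log2 per hour in knockdown and −0.12 in control, and the median share of the rate left at 7.5 h was 60.3% and 50.8%. Across the 36 genes, which share the libraries, the Spearman correlation of slope with abundance was 0.388 in knockdown and 0.381 in control, within the 15 mitochondrial genes it was −0.136 and −0.0286, and within the 21 cytosolic genes 0.408 and 0.588. The part of abundance in the difference between classes was not tested.

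Comparing enzymes for the same amino acid holds the letter fixed and lets the compartment vary. The exception is the pair of EARS2 with EPRS1, since EPRS1 charges both glutamate and proline. Of 17 pairs, made of 15 mitochondrial and 17 cytosolic genes, the mitochondrial slope was the lower one in 12 in knockdown and in 10 in control, the same 10 being lower in both. At 0 h the mitochondrial rate lay above the cytosolic one in both libraries for 9 pairs in knockdown and 8 in control, and below it in both for 3 and 5. At 7.5 h it lay above in 2 pairs in knockdown and 5 in control, and below in 8 and 9. These counts set the 2 genes against each other within each library. FARS2 and TARS2 each stand in 2 pairs, so the pairs are not independent. The pair of VARS2 and VARS1 is counted although VARS2 was listed at 0 in 13 of 16 libraries. That pair counts as above at 7.5 h in knockdown, and as below at 0 h in both genotypes and at 7.5 h in control.

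For leucine the mitochondrial enzyme had the higher rates at 0 h in both genotypes but not at 7.5 h. LARS1 (ENSG00000133706, chromosome 5, 146113038 to 146182660, minus strand) had rates of 0.777% and 0.588% at 0 h, 0.886% and 0.843% after 1.5 h, 0.584% and 0.671% after 4.5 h and 0.719% and 0.690% after 7.5 h in knockdown. The pairs in control were 0.327% and 0.260% at 0 h, 0.486% and 0.431% after 1.5 h, 0.306% and 0.335% after 4.5 h and 0.324% and 0.394% after 7.5 h. In both genotypes the LARS2 libraries given above lay over those of LARS1 at 0 h, and by 7.5 h the knockdown libraries of both genes were within 0.639% to 0.719%, while in control LARS2 lay below LARS1 in both libraries, by a mean of −0.112 percentage points. For phenylalanine FARS2 lay over both FARSA and FARSB in both libraries at 0 h in each genotype. At 7.5 h the mean difference of FARS2 minus FARSA was 0.0057 percentage points in knockdown and −0.0998 in control, where FARS2 was below in both libraries. Against FARSB it was −0.274 and −0.166, with FARS2 below in both libraries of each genotype.

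For threonine the pair crossed. TARS2 (ENSG00000143374, chromosome 1, 150487364 to 150507609, plus strand) had rates of 2.22% and 1.42% at 0 h, 1.04% and 1.68% after 1.5 h, 0.774% and 1.02% after 4.5 h and 0.443% and 0.990% after 7.5 h in knockdown. Control libraries had rates of 0.784% and 0.889% at 0 h, 0.578% and 0.469% after 1.5 h, 0.695% and 0.535% after 4.5 h and 0.219% and 0.372% after 7.5 h. Both genotypes had the highest mean of TARS2 at 0 h. TARS1 (ENSG00000113407, chromosome 5, 33440696 to 33469539, plus strand) had rates of 1.17% and 1.12% at 0 h, 1.20% and 1.40% after 1.5 h, 1.47% and 1.45% after 4.5 h and 1.16% and 1.02% after 7.5 h in knockdown. The control rates were 0.703% and 0.844% at 0 h, 0.790% and 0.848% after 1.5 h, 0.497% and 0.822% after 4.5 h and 0.538% and 0.569% after 7.5 h. TARS1 in knockdown was highest on average at 4.5 h and ended at 95.0% of its 0 h rate, whereas TARS2 ended at 39.4%. At 0 h TARS2 lay above TARS1 in both libraries of each genotype, and at 7.5 h it lay below in both libraries of each. The TARS2 slope was −0.18 (SE 0.0481, adjusted p = 0.00743) in knockdown, a call that ended without knockdown 7.5 h replicate 1 (−0.13), and −0.15 (SE 0.0481, adjusted p = 0.0202) in control, ended without control 0 h replicate 2 or control 7.5 h replicate 1 (−0.17 to −0.10).

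**Figure D3:**
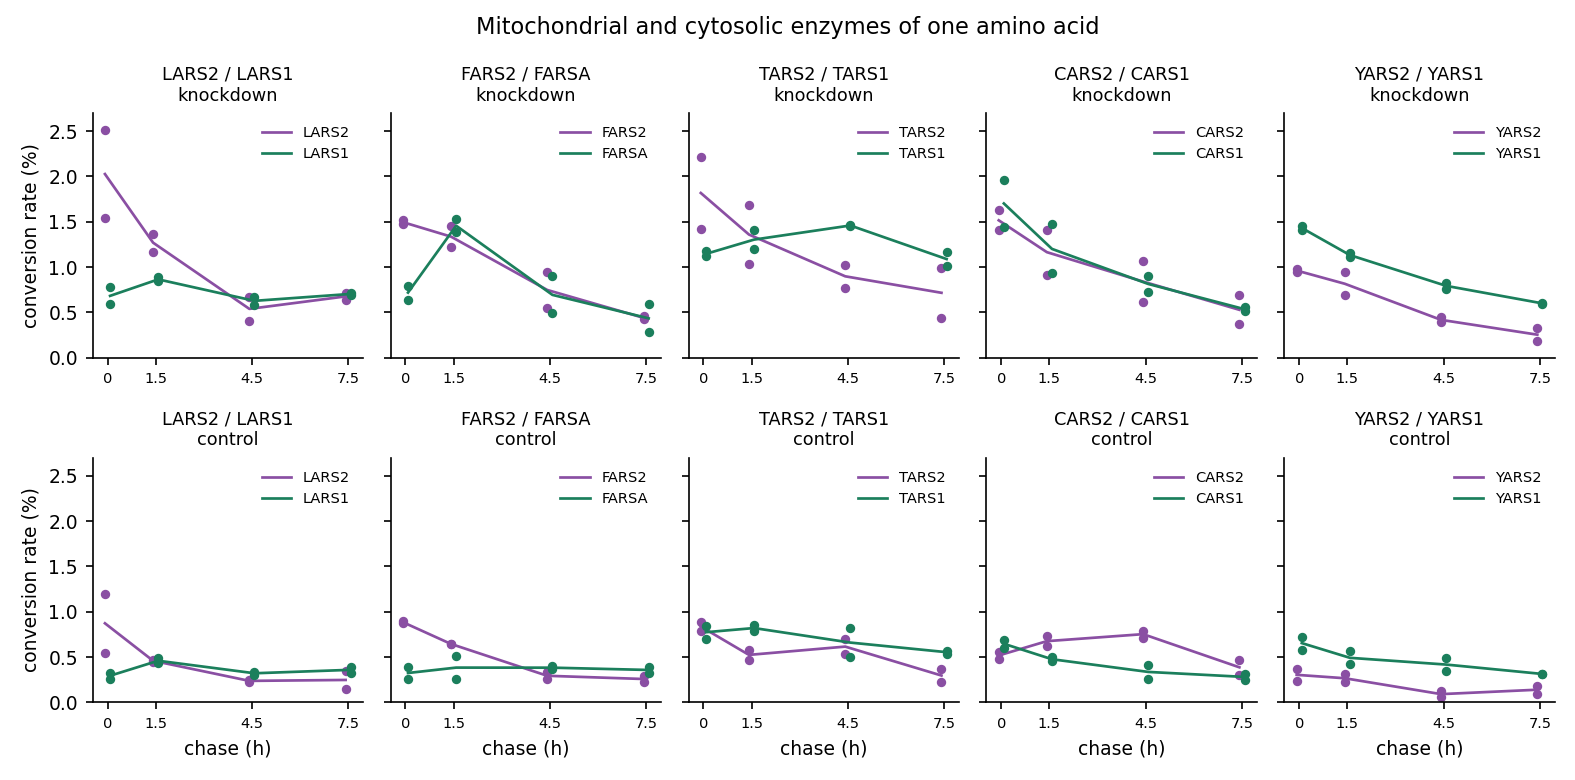
Conversion rate in percent (vertical axis) against chase time in hours (horizontal axis) for 5 pairs of mitochondrial (purple) and cytosolic (green) enzymes of the same amino acid, knockdown above and control below; points are single libraries and lines join the means of 2. LARS2, FARS2 and TARS2 start above their cytosolic partners at 0 h in all 4 libraries, and YARS2 lies below YARS1 at every time.

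Cysteine did not follow that order. CARS2 (ENSG00000134905, chromosome 13, 110641412 to 110713603, minus strand) had rates of 1.40% and 1.63% at 0 h, 1.41% and 0.915% after 1.5 h, 1.06% and 0.616% after 4.5 h and 0.370% and 0.688% after 7.5 h in knockdown. In the control libraries they were 0.558% and 0.477% at 0 h, 0.729% and 0.620% after 1.5 h, 0.789% and 0.715% after 4.5 h and 0.467% and 0.306% after 7.5 h. The control mean of CARS2 was highest at 4.5 h. CARS1 (ENSG00000110619, chromosome 11, 3000922 to 3057613, minus strand) had rates of 1.96% and 1.45% at 0 h, 1.47% and 0.930% after 1.5 h, 0.727% and 0.900% after 4.5 h and 0.557% and 0.514% after 7.5 h in knockdown. Control values ran 0.687% and 0.604% at 0 h, 0.498% and 0.453% after 1.5 h, 0.416% and 0.255% after 4.5 h and 0.251% and 0.310% after 7.5 h. The knockdown libraries of the pair overlapped at every time, while in control CARS2 lay below CARS1 at 0 h and above it at 1.5 h and 4.5 h. CARS2 exons overlap ING1, and those of CARS1 overlap CARS-AS1, each on the opposite strand.

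Tyrosine had the mitochondrial enzyme below the cytosolic one throughout. YARS2 (ENSG00000139131, chromosome 12, 32727490 to 32755902, minus strand) had rates of 0.941% and 0.983% at 0 h, 0.943% and 0.690% after 1.5 h, 0.447% and 0.389% after 4.5 h and 0.186% and 0.324% after 7.5 h in knockdown. For control the rates were 0.369% and 0.237% at 0 h, 0.220% and 0.312% after 1.5 h, 0.0559% and 0.125% after 4.5 h and 0.181% and 0.0969% after 7.5 h, of which the lowest is close to the pseudocount of 0.05 percentage points. In both genotypes the 7.5 h pair lay below the 0 h pair. YARS1 (ENSG00000134684, chromosome 1, 32775237 to 32818153, minus strand) had rates of 1.45% and 1.41% at 0 h, 1.11% and 1.15% after 1.5 h, 0.828% and 0.759% after 4.5 h and 0.608% and 0.591% after 7.5 h in knockdown. The pairs in control were 0.582% and 0.725% at 0 h, 0.420% and 0.562% after 1.5 h, 0.342% and 0.491% after 4.5 h and 0.315% and 0.311% after 7.5 h. Within each genotype no library of YARS2 reached a YARS1 library of the same time, and both genes fell, YARS1 at −0.16 (SE 0.0251, adjusted p = 1.3e-04) in knockdown and −0.12 (SE 0.0251, adjusted p = 0.00172) in control. YARS1 exons overlap S100PBP on the opposite strand.

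The comparison of genotypes asked whether rates differed between knockdown and control over the whole chase. Of the 36 members 35 were higher in knockdown (all 21 cytosolic genes and 14 of 15 mitochondrial genes) and none lower, where 69.6% of all tested genes were higher and 0.172% lower. The median effect was 0.98 log2 for mitochondrial and 0.98 for cytosolic genes, against 1.02 for all tested genes, so the shift of the synthetases was about that of all genes. The genotype call of QARS1 was lost on leaving out any of 7 libraries (0.31 to 0.50), that of HARS2 without knockdown 4.5 h replicate 1 or 2 (0.84 to 1.59) and that of VARS2 without any of 7 (1.15 to 1.89).

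At single times, 4, 6, 5 and 2 of the mitochondrial genes and 13, 18, 14 and 14 of the cytosolic genes were higher in knockdown at 0, 1.5, 4.5 and 7.5 h, where 35.6%, 38.9%, 38.3% and 33.5% of all tested genes were. Knockdown libraries lay above control libraries with no overlap at all 4 times for 6 mitochondrial and 16 cytosolic genes, against 40.5% of all tested genes. The 14 not counted include QARS1, MARS1, HARS2, IARS2 and SARS2. With libraries centred none of the 36 passed at any time, where 0.548%, 0.511%, 0.727% and 1.10% of all tested genes did. At single times the groups hold 2 libraries each.

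Relative to the library medians, a shift of 1.05 log2 that centring takes away, NARS1 was higher and QARS1 and MARS1 were lower in knockdown, where 1.45% and 4.59% of all tested genes were. NARS1, the cytosolic asparaginyl-tRNA synthetase (ENSG00000134440, chromosome 18, 57600656 to 57622213, minus strand), had rates of 1.27% and 1.09% at 0 h, 1.67% and 1.31% after 1.5 h, 1.34% and 1.24% after 4.5 h and 0.897% and 0.697% after 7.5 h in knockdown. Control libraries had rates of 0.336% and 0.518% at 0 h, 0.325% and 0.396% after 1.5 h, 0.409% and 0.376% after 4.5 h and 0.330% and 0.304% after 7.5 h. In knockdown the rate was highest on average at 1.5 h and exceeded control 4.13-fold there, while control rates lay within 0.304% to 0.518% throughout. The centred effect was 0.47 (SE 0.0996, adjusted p = 0.0104), and it passed without any single library, over 0.41 to 0.53. With no abundance minimum, where the centring median is that of other genes, the value turned to −0.22 (adjusted p = 0.526).

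QARS1, glutaminyl-tRNA synthetase of the multisynthetase complex (ENSG00000172053, chromosome 3, 49095932 to 49105135, minus strand), had rates of 0.493% and 0.689% at 0 h, 0.822% and 0.522% after 1.5 h, 0.416% and 0.660% after 4.5 h and 0.408% and 0.416% after 7.5 h in knockdown. The control rates were 0.432% and 0.485% at 0 h, 0.295% and 0.323% after 1.5 h, 0.544% and 0.280% after 4.5 h and 0.477% and 0.349% after 7.5 h. The genotypes separated at 0 h and 1.5 h and overlapped at 4.5 h and 7.5 h, and the mean in knockdown was 2.17 times that in control at 1.5 h and 0.997 times at 7.5 h. The centred effect was −0.63 (SE 0.160, adjusted p = 0.0303), against 0.42 (SE 0.165, adjusted p = 0.0335) before centring. The centred call was lost on leaving out any of 9 libraries (−0.73 to −0.54) and with no variance trend (adjusted p = 0.0618).

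MARS1, methionyl-tRNA synthetase of the same complex (ENSG00000166986, chromosome 12, 57475445 to 57517569, plus strand), had rates of 0.851% and 0.882% at 0 h, 0.883% and 0.966% after 1.5 h, 0.590% and 0.708% after 4.5 h and 0.445% and 0.727% after 7.5 h in knockdown. In the control libraries they were 0.832% and 0.418% at 0 h, 0.525% and 0.415% after 1.5 h, 0.643% and 0.571% after 4.5 h and 0.361% and 0.393% after 7.5 h. The genotypes did not overlap at 0, 1.5 and 7.5 h, and they overlapped at 4.5 h. The centred effect was −0.54 (SE 0.149, adjusted p = 0.0470), and the call was lost on leaving out any of 13 libraries (−0.62 to −0.45), at a pseudocount of 0.02 and with no variance trend. MARS1 exons overlap ARHGAP9 and DDIT3 on the opposite strand. DDIT3, which had an abundance of 138 CPM against 84.0 CPM for MARS1, fell at −0.36 (SE 0.0312, adjusted p = 5.2e-07) in knockdown and −0.27 (SE 0.0312, adjusted p = 9.1e-06) in control.

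**Figure D4:**
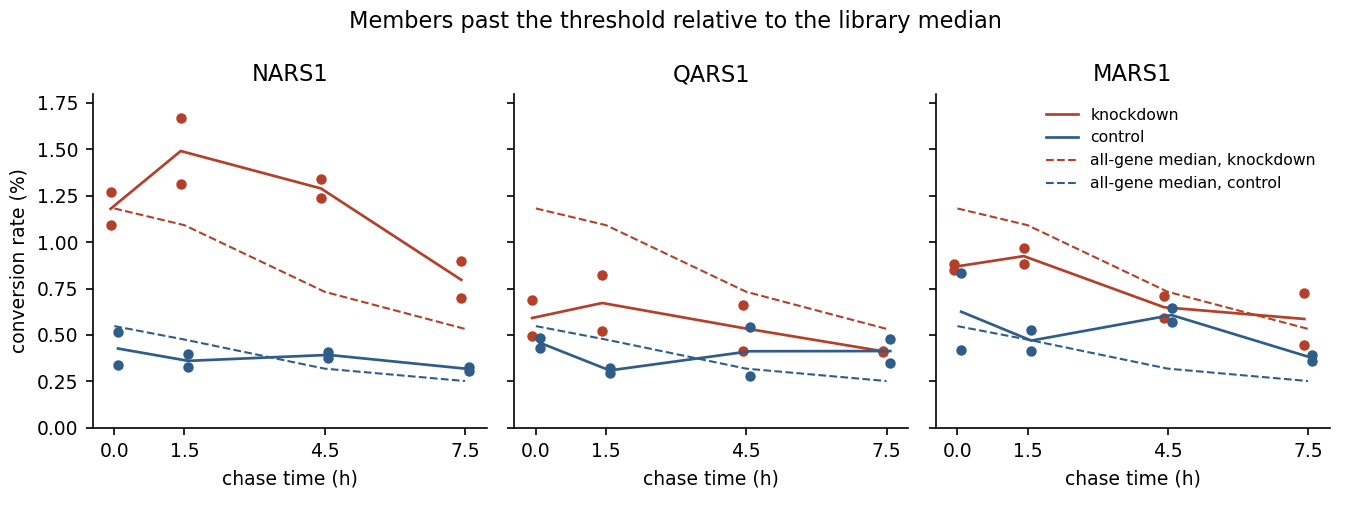
Conversion rate in percent (vertical axis) against chase time in hours (horizontal axis) for NARS1, QARS1 and MARS1 in knockdown (red) and control (blue); points are single libraries, solid lines join the means of 2, and dashed lines give the mean of the library medians over 16241 genes. NARS1 in knockdown stands above the dashed line after 0 h, and QARS1 and MARS1 in knockdown start below it.

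**Figure D5:**
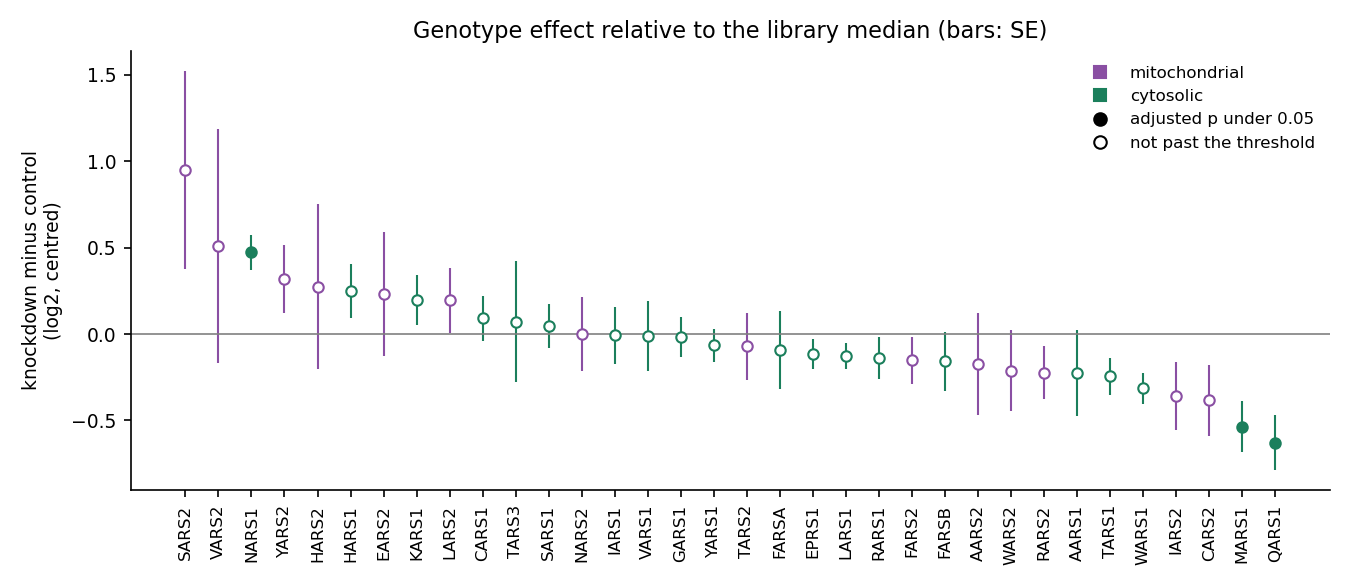
Genotype effect relative to the library median, knockdown minus control in log2 (vertical axis), for the genes named, in falling order (horizontal axis); bars are SE and filled points have an adjusted p under 0.05. NARS1 at 0.47, MARS1 at −0.54 and QARS1 at −0.63 are filled, and SARS2 lies farther out with a larger SE.

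The other 33 centred effects did not pass. SARS2 was at 0.95 (SE 0.573, adjusted p = 0.399), and all 36 had medians of −0.072 for mitochondrial and −0.066 for cytosolic genes. WARS1, tryptophanyl-tRNA synthetase and the most abundant member at 1155 CPM, came closest of the cytosolic genes at −0.32 (SE 0.0918, adjusted p = 0.0577). Its knockdown rates were 1.04% and 1.17% at 0 h, 0.963% and 0.728% after 1.5 h, 0.551% and 0.542% after 4.5 h and 0.609% and 0.525% after 7.5 h. Control values ran 0.419% and 0.573% at 0 h, 0.501% and 0.451% after 1.5 h, 0.315% and 0.423% after 4.5 h and 0.370% and 0.362% after 7.5 h, and knockdown lay above control at every time. WARS1 exons overlap WDR25 on the opposite strand.

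The time of the highest mean rate varied among the members. It came after 0 h for 12 of 36 in knockdown, where it did for 50.9% of all tested genes, and for 10 in control, against 51.9%. In knockdown the peak came at 1.5 h for 9 of the 36, about the share of all tested genes (24.4%). These were AARS2, IARS2, SARS2, FARSA, LARS1, MARS1, NARS1, QARS1 and SARS1.

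The difference of slopes asked whether the rate fell at another pace in knockdown. No member passed, nor did any of the 16241 genes by limma, although 1269 had an unadjusted p under 0.05. With no variance trend a single gene of all those tested passed. Among the members 2 had an unadjusted p under 0.05, HARS1 at −0.11 (SE 0.0521, adjusted p = 0.637) and RARS2 at −0.12 (SE 0.0465, adjusted p = 0.545). In 23 of 36 the slope was the lower one in knockdown. Of all tested genes between 52.7% and 55.7% had it lower too, the percentiles of AARS2 (difference −0.0044) and LARS2 (0.0025). The SE of these differences, from 0.029 for EPRS1 to 0.229 for VARS2, limits what could be seen, and a p that misses the threshold does not show equal slopes. Across the 36 genes the Spearman correlation of knockdown with control slopes, which come from separate libraries, was 0.694.

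None of the 3 scaffold genes of the multisynthetase complex had a slope past the threshold in either genotype. Of all tested genes 37.9% fell in knockdown and 34.4% in control. All 3 scaffold genes were higher in knockdown, as were 69.6% of all tested genes. AIMP1, at 605 CPM the most abundant of them, was higher by 1.45 (SE 0.0808, adjusted p = 1.7e-09), and by 0.40 (SE 0.0756, adjusted p = 0.00508) relative to the library medians. Its slope was −0.048 in knockdown and 0.0091 in control. AIMP2 and EEF1E1 had slopes of −0.049 and −0.0085 in knockdown, and −0.072 and 0.022 in control. Relative to the library medians AIMP1 rose by 0.10 (adjusted p = 0.0111) in knockdown and 0.14 (adjusted p = 9.5e-04) in control. EEF1E1 rose by 0.14 (adjusted p = 0.00374) and 0.16 (adjusted p = 0.00184), and AIMP2 passed in neither genotype. Of all tested genes 17.7% rose so in knockdown and 17.6% in control.

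Some partners of the mitochondrial enzymes fell. Of the 3 subunits of the glutaminyl-tRNA amidotransferase (QRSL1, GATB, GATC) and the methionyl-tRNA formyltransferase MTFMT, 3 fell in knockdown, against 37.9% of all tested genes, and 2 in control, against 34.4%. QRSL1 fell at −0.22 (SE 0.0513, adjusted p = 0.00306) in knockdown and −0.22 (SE 0.0513, adjusted p = 0.00349) in control, and MTFMT at −0.21 (SE 0.0408, adjusted p = 7.1e-04) and −0.20 (SE 0.0408, adjusted p = 9.9e-04). GATC fell in knockdown alone (−0.24 (SE 0.0714, adjusted p = 0.0127); control −0.0047). TRNT1, which adds the CCA end to tRNAs of both compartments, fell at −0.30 (SE 0.0379, adjusted p = 1.3e-05) in knockdown and −0.17 (SE 0.0379, adjusted p = 0.00241) in control. EEF1A1, the elongation factor that delivers charged tRNA to cytosolic ribosomes, did not fall, with 0.051 (SE 0.0223, adjusted p = 0.0778) in knockdown and a rise of 0.071 (SE 0.0223, adjusted p = 0.0202) in control. TUFM, its mitochondrial counterpart, passed in neither genotype, with 0.084 (SE 0.0646, adjusted p = 0.317) in knockdown and 0.088 (SE 0.0646, adjusted p = 0.313) in control. Relative to the library medians both rose in both genotypes, TUFM by 0.23 (SE 0.0631, adjusted p = 0.0112) in knockdown and 0.22 (SE 0.0631, adjusted p = 0.0150) in control.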

How the data were processed

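Conversion rates were deposited by the authors as a fraction between 0 and 1 per gene and library, in a table of 60564 genes. Neither the rate nor its denominator is named in the table, and the values were read as a T-to-C rate from the assay. The same table holds a gene abundance in CPM, a single column per the file headers. CASAVA, HISAT2 2.1.0 and hg38 are given per the submitters' processing notes; the annotation and the strand setting are not stated there. Rates in percent plus a pseudocount of 0.05 were put on the log2 scale and linear models were fitted (limma 3.58.1, R 4.3.3) with variances trended on log2(CPM + 0.01). P-values were adjusted by Benjamini-Hochberg, threshold 0.05, over 16241 genes with at least 1 CPM and a rate above 0 in any library. Genotype effects were knockdown minus control, adjusted for the 4 times. Slopes came from an intercept and a slope for each genotype, and effects at single times from 8 group means. Fold changes and slopes are on the log2(value + pseudocount) scale, which understates changes at low rates. Centred values have each library's median log2 rate subtracted. The fits were tested on simulated data. The members, lists and tests were chosen with earlier results of these data known. Values in every library are given for members past the threshold in the centred genotype or slope-difference fit, for the 4 lowest and 4 highest control slopes among members above 0 in all libraries, and for up to 6 pairs with both genes above 0 in all libraries; WARS1 and TARS3 were added after their values were seen. The main fits hold no replicate block, since same-numbered replicates of different groups did not deviate together. Alternatives were other pseudocounts, abundance minimums, no variance trend, centring, a replicate block and leaving out each library. Values of 2 members, which stay in the counts, medians and correlations, are not reported here.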

Additional observations from a re-analysis of the deposited data

How the results depend on the processing

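Depth behind each rate is unknown, so low rates limit all slopes, and with 2 libraries a group, leaving one out rests on spread pooled over groups. Where the cause of a change is not evident from the setting, the cause was not tested.

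Centring the libraries took the members higher in knockdown to 1, with 2 lower, and to 0 at each of 0, 1.5, 4.5 and 7.5 h. It turned the knockdown slope to 5 rising and 0 falling and the control slope to 8 rising and 2 falling. The class medians became −0.0723 (genotype, mitochondrial), −0.0657 (genotype, cytosolic), −0.0447 and 0.0618 (knockdown slope), and 0.00201 and 0.0666 (control slope). At a pseudocount of 0.2 the cytosolic medians were 0.79 for genotype, −0.0731 for knockdown slope and −0.0564 for control slope, and the mitochondrial control slope was −0.0889. With no abundance minimum 12 members fell in knockdown. In the centred genotype fit no abundance minimum gave 0 higher and 16 lower members, a pseudocount of 0.02 gave 1 lower and no variance trend 0 lower. In centred knockdown slopes no minimum gave 0 rising and a pseudocount of 0.2 gave 1 falling; in centred control slopes no minimum gave 16 rising and 0 falling and a pseudocount of 0.2 gave 1 falling. With no variance trend 1 knockdown slope rose. Without the minimum the libraries are centred on the median of other genes.

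Same-numbered replicates of different groups had deviations correlated between −0.0239 and 0.0396 over 28 pairs of groups, so the numbers were not taken to pair the libraries. With a replicate block 1 member, QARS1, was lower in the centred genotype fit, and MARS1 was at adjusted p = 0.0592.

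Leaving out each library in turn gave these ranges of members: 33 to 35 higher and 0 to 0 lower in the genotype effect, 1 to 1 higher and 0 to 2 lower when centred, 0 to 1 rising and 11 to 20 falling in knockdown, 0 to 0 rising and 13 to 18 falling in control, 5 to 6 rising and 0 to 1 falling in centred knockdown slopes, 5 to 9 rising and 0 to 2 falling in centred control slopes, and 11 to 19, 10 to 26, 13 to 21 and 9 to 17 higher at 0, 1.5, 4.5 and 7.5 h. Medians ran from 0.90 to 1.05 (mitochondrial) and 0.95 to 1.02 (cytosolic) for genotype, from −0.23 to −0.13 and −0.0964 to −0.0728 for knockdown slope, and from −0.15 to −0.10 and −0.0852 to −0.0667 for control slope.

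Signs turned on centring for genotype effects, which became −0.17 in AARS2, −0.38 in CARS2, −0.15 in FARS2, −0.36 in IARS2, −0.22 in RARS2, −0.072 in TARS2, −0.21 in WARS2, −0.23 in AARS1, −0.12 in EPRS1, −0.092 in FARSA, −0.16 in FARSB, −0.020 in GARS1, −0.0084 in IARS1, −0.13 in LARS1, −0.54 in MARS1, −0.63 in QARS1, −0.14 in RARS1, −0.24 in TARS1, −0.011 in VARS1, −0.32 in WARS1 and −0.066 in YARS1. NARS1 was at −0.22 in the centred genotype fit with no abundance minimum. Knockdown slopes turned to 0.10 in EPRS1, 0.000178 in FARSA, 0.11 in GARS1, 0.13 in LARS1, 0.069 in NARS1, 0.066 in RARS1, 0.14 in TARS1, 0.012 in VARS1 and 0.027 in WARS1, and control slopes to 0.036 in RARS2, 0.056 in EPRS1, 0.10 in NARS1, 0.011 in RARS1, 0.010 in SARS1, 0.078 in WARS1 and 0.019 in YARS1.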

Other observations

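Of 14 listed genes that sense uncharged tRNA or respond to ATF4, 8 fell in knockdown, against 37.9% of all tested genes, and 5 in control, against 34.4%, and none rose. In all 32 listed pathway genes, of which 31 were tested, 14 fell in knockdown and 10 in control, shares near those of all tested genes. ATF4, the transcription factor itself, fell at −0.28 (SE 0.0306, adjusted p = 3.7e-06) in knockdown and −0.22 (SE 0.0306, adjusted p = 4.0e-05) in control. SLC7A11, the cystine transporter, fell at −0.27 (SE 0.0448, adjusted p = 1.5e-04) and −0.23 (SE 0.0448, adjusted p = 8.6e-04), its partner SLC3A2 at −0.21 (SE 0.0294, adjusted p = 4.3e-05) and −0.17 (SE 0.0294, adjusted p = 3.4e-04), and CHAC1, a glutathione-degrading enzyme, at −0.34 (SE 0.0759, adjusted p = 0.00177) and −0.29 (SE 0.0759, adjusted p = 0.00720). SHMT2, of mitochondrial serine metabolism, had slopes of 0.086 (SE 0.0396, adjusted p = 0.0928) in knockdown and 0.082 (SE 0.0396, adjusted p = 0.115) in control and did not pass. Across genotypes 13 of the 14 were higher in knockdown, against 69.6% of all tested genes, and none passed when centred.

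Among editing and release factors 1 of 5 tested fell in each genotype, against the same 37.9% and 34.4%. This was PTRH2, a peptidyl-tRNA hydrolase of mitochondria, at −0.22 (SE 0.0270, adjusted p = 1.1e-05) in knockdown and −0.23 (SE 0.0270, adjusted p = 1.0e-05) in control. SEPSECS, which makes selenocysteinyl-tRNA, fell at −0.32 (SE 0.101, adjusted p = 0.0172) and −0.35 (SE 0.101, adjusted p = 0.0125), whereas PSTK, the kinase of the preceding step, passed in neither genotype, at 0.093 and −0.26.

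The 6 cytosolic genes whose promoter windows held the C/EBP-ATF element had a median slope of −0.085 in knockdown and −0.074 in control, and the 10 cytosolic genes of the promoter table without it −0.084 and −0.061, as a description with no test. Their median centred genotype effects were −0.12 with the element and −0.11 without, and the element stands in both NARS1, which was higher when centred, and MARS1, which was lower.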
